A study of Mus musculus with 2 samples.

Results

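The 10 genes described here, Aspm, Wdr62, Cdk5rap2, Cenpj, Stil, Mcph1, Knl1, Cep152, Cep135 and Sass6, are mouse genes whose human counterparts are mutated in primary microcephaly. They were taken by symbol, and each matched 1 of the 43346 gene rows of the deposited tables. They were measured in forebrain of B6NCrl mouse embryos at embryonic day 11.5, in 1 group of healthy animals of both sexes, with no treatment named. Replicate 1 pooled the forebrains of 109 embryos and replicate 2 those of another 88. The input of each library was 1 cell-equivalent of RNA, taken from RNA longer than 200 nucleotides and copied by a Smart-seq protocol, with spike-in RNAs added. Each pool gave 1 library, so the spread between the libraries holds the pools and the library making together. With 1 group there was no contrast and no p-value, and the question was how much of each gene was read and how far the replicate libraries agreed on it.

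Primary microcephaly is a condition in which the brain is small from birth while its build is largely kept, and most of its known genes act at the centrosome, the spindle pole or the kinetochore. A centrosome is a pair of centrioles in a coat of pericentriolar material from which microtubules grow, and in mitosis it sits at the spindle pole. In the forebrain the neural progenitors divide along the ventricle, and the number of times they divide before making neurons sets how many neurons the cortex receives.

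The libraries held 28639678 and 28948074 expected counts, which are estimated reads per gene. Levels are given as TPM, a gene's transcripts scaled to a fixed total, which divides counts by a gene's effective length, itself an average over the transcripts to which its reads were assigned. All 8 listed neural progenitor genes and all 6 listed proliferation genes reached the detection threshold, a TPM of 1, in each library, and the 6 proliferation genes summed to 1727 and 1622 TPM in replicates 1 and 2. Of 6 forebrain regulators 5 did so, and Six3 stood at 2.07 and 0 TPM. All 6 listed young neuron genes were detected in both libraries, at a summed 918 and 885 TPM. Blood was present too, with 6 of 7 erythroid genes detected in both libraries at a summed 31166 and 37330 TPM, as were endothelial genes (5 of 6) and mesenchymal genes (5 of 6). In whole tissue, fewer cells of a type and less RNA per cell cannot be told apart. The 10 genes could come from any dividing cell in the pool, and the part of each cell type in their levels was not tested.

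At the same threshold, 7 of the 10 genes were detected in both libraries, where 30.4% of all protein-coding genes were. The 7 were Knl1, Sass6, Stil, Mcph1, Wdr62, Cdk5rap2 and Aspm. Cenpj passed in replicate 2 alone and Cep152 in replicate 1 alone, and Cep135 passed in neither. Their levels were low to moderate. Over all 10 the median of the mean TPM was 15.3. Over the 7 detected in both libraries it was 20.1, beside 40.7 for the protein-coding genes detected in both. The 10 genes summed to 115.54 TPM in replicate 1 and 166.48 in replicate 2, a mean of 141 ± 36.02 (SD, n = 2).

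By mean TPM, Knl1 came first at 32.9 ± 36.3 (SD, n = 2 here and for the other means), followed by Sass6 at 23.6 ± 19.1 and Stil at 21.8 ± 5.79. Mcph1 at 20.1 ± 22.5, Wdr62 at 17.9 ± 9.36 and Cdk5rap2 at 12.7 ± 1.93 came next. Cenpj at 6.28 ± 8.08, Aspm at 4.27 ± 1.17, Cep152 at 1.55 ± 2.18 and Cep135 at 0.03 ± 0.04 closed the order. This order was loose. The values of each gene overlapped those of the next one down in every case except Aspm and Cep152. Mcph1 ranked 1 of 10 in replicate 1 and 7 in replicate 2, and Knl1 ranked 6 and then 1. Stil was at rank 3 and Cdk5rap2 at rank 4 in both libraries.

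**Figure D1:**
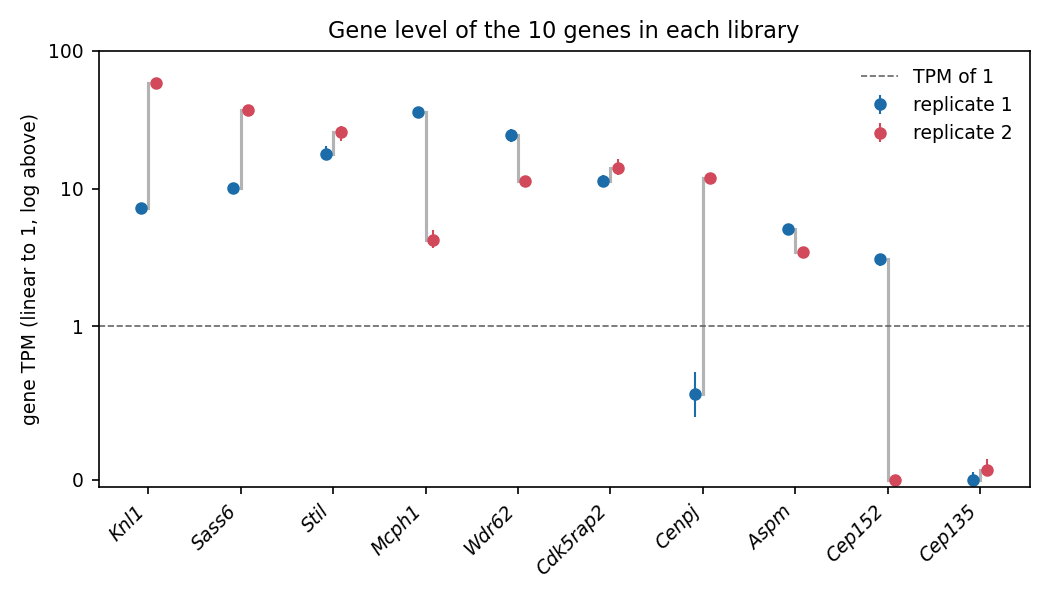
Gene TPM of the 10 genes in replicate 1 (blue) and replicate 2 (red), ordered by mean TPM, on an axis that is linear up to 1 and logarithmic above. Vertical bars are the interval deposited with each TPM, grey lines join the libraries, and the dashed line marks the detection threshold of 1. Stil, Cdk5rap2 and Aspm have short grey lines, while Knl1, Mcph1 and Cenpj have long ones.

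Of the spindle pole genes, Aspm was low and differed by less than 2-fold. ASPM binds microtubule minus ends at the pole and keeps the spindle focused. The gene (chr1:139454772-139494091, plus strand, mm10) stood at 5.09 TPM in replicate 1 and 3.44 in replicate 2, on 1113 and 746 expected counts. Replicate 2 was lower by a ratio of 0.676 in TPM, a difference of -0.46 on the log2(TPM + 1) scale. Only 1 transcript is listed for it, 9866 bases long, so TPM and counts gave nearly the same ratio, 0.676 and 0.656.

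Wdr62, which encodes a scaffold that holds kinases and spindle proteins at the pole, went in opposite directions on the 2 scales. The gene (chr7:30240138-30280419, minus strand) stood at 24.49 and 11.26 TPM, so replicate 1 was higher per length. Its expected counts were 335 and 1103, so replicate 2 was higher in reads, by a ratio of 3.22 after scaling for depth. Between these lay the effective length, 611.11 bases in replicate 1 and 4414.95 in replicate 2. In replicate 1 a 648-base transcript with a retained intron, at the 3′ end of the gene (chr7:30240143-30240883), was assigned 293.75 counts, 23.91 TPM and, in the deposited percent of the gene's TPM per transcript, 97.61%. In replicate 2 it was assigned 0 counts. The 4742-base transcript with the full coding sequence of 4572 bases was the reverse, with 0 counts in replicate 1 and 983.27 counts and 9.55 TPM in replicate 2. A 3245-base coding transcript had 41.25 and 119.73 counts. It has no base of its own among the listed transcripts and the full coding one has 32, so 0 assigned counts do not show that the full transcript was absent from replicate 1.

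The stretch that sets the short transcript apart is shown here, 5′ to 3′ on the gene's strand, because most of the gene's TPM in replicate 1 was given to that transcript. Of the short transcript, 169 bases (chr7:30240715-30240883) lie in no other listed transcript and are intronic in the full coding one. In the first line they are in capitals, followed by 30 bases of the shared exon. The second line is the spliced junction of the full coding transcript, 30 bases on each side, with the downstream exon in capitals. How many reads covered either stretch is not given in the tables.
Wdr62 retained: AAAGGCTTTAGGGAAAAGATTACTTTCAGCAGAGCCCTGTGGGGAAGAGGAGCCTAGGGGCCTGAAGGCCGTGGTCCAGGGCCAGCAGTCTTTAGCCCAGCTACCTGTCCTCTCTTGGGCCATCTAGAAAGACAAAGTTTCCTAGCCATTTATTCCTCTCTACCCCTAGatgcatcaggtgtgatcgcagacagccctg
Wdr62 spliced: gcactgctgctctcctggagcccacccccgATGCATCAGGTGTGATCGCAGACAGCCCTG

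Cdk5rap2, in the pericentriolar material, had the next smallest difference in TPM after Cep135, and its counts went the other way. Its protein docks the γ-tubulin ring complexes that start microtubules. The gene (chr4:70216856-70410443, minus strand) stood at 11.29 and 14.02 TPM, a difference of 0.29 on the log2(TPM + 1) scale. Its expected counts were 2668.42 and 1355.54, lower in replicate 2 by a ratio of 0.497 after depth scaling. The 11847-base transcript with the longest coding sequence, 5466 bases, had 2652 counts and 10.09 TPM in replicate 1 and 629.48 counts and 2.42 TPM in replicate 2. Replicate 2 also had 588.97 counts on a 5248-base transcript of the nonsense-mediated decay class and 115.55 on a 1171-base fragment, both at 0 counts in replicate 1. Among the listed transcripts the 5248-base one has no base of its own and the fragment has 27. Their 0 assigned counts do not show that they were absent from replicate 1. The near equality of the gene's TPM thus covered a change of assigned transcripts and a lower count. A pseudogene on the same strand, Ywhaq-ps3, shares 365 exonic bases with Cdk5rap2 and held 176.85 and 225.56 counts, and reads of the pair may not be separable there.

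The 5 centriole genes ran from Stil, whose depth-scaled counts were the closest between libraries among the genes read in both, to genes read in a single library. Together they summed to 31.39 TPM in replicate 1 and 75.06 in replicate 2. STIL joins the kinase PLK4 to SAS-6 at the site of a new centriole. Stil (chr4:115000159-115043196, plus strand) stood at 17.71 and 25.90 TPM, on 1574 and 1936 counts, a ratio of 1.20 after depth scaling, with a difference of 0.52 on the log2(TPM + 1) scale. Its 5285-base transcript, which has the longest coding sequence, led in both libraries, with 1210.13 and 1482.82 counts and 58.86% and 49.78% of the gene's TPM. A 2162-base coding transcript followed at 6.87 and 8.85 TPM. A 622-base transcript of the nonsense-mediated decay class, with no base of its own, was at 0.02 and 4.16 TPM, on 0.27 and 48.21 counts. Stil was the one gene of several transcripts in the set whose leading transcript was the same in both libraries, among those with a gene TPM of 5 or more in each.

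Sass6 encodes the protein of the cartwheel, the frame on which a centriole is assembled. The gene (chr3:116594982-116631004, plus strand) stood at 10.03 TPM in replicate 1 and 37.11 in replicate 2, on 930 and 3409.37 counts. Replicate 2 was higher by a ratio of 3.70 in TPM and 3.59 in depth-scaled counts. Trmt13, a tRNA methyltransferase gene on the opposite strand, shares 389 exonic bases with Sass6 and went the other way, at 46.52 and 16.18 TPM. Its counts were 1504 and 261.63. An antisense gene, Gm42893, shares 1502 exonic bases with Sass6 and has no row of its own among the gene rows used here. No level can be given for it. Whether strand was used in counting is not given in the sources used here, so reads in the shared bases may belong to either gene.

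The other 3 centriole genes were at or near 0 in a library. Cenpj encodes CPAP, which binds tubulin and sets centriole length. It (chr14:56526761-56575425, minus strand) was at 0.56 TPM in replicate 1 and 11.99 in replicate 2, on 53 and 1134 counts, so replicate 1 held 4.56% of its depth-scaled counts. CEP152 is the ring around the parent centriole that recruits PLK4. Cep152 (chr2:125563088-125625113, minus strand) was at 3.09 TPM on 392 counts in replicate 1 and at 0 in replicate 2. Taken against a floor of 3 counts for the 0 in that library, Cep152 was 133-fold higher in replicate 1 in counts scaled for depth. This ratio depends on the floor and takes the 392 counts as exact, so it is not a bound. CEP135 ties the cartwheel to the centriole wall. Cep135 (chr5:76588698-76646466, plus strand) had 0 counts in replicate 1 and 7 in replicate 2, with an exact Poisson 95% interval of 2.81 to 14.4 counts, and no ratio is given. Of the 9 genes whose mean TPM lay from 1 to 50, Cep152 was the only one with under 1% of its depth-scaled counts in one library. Among all genes in that range the share was 40.2%, so near-absence from a library was common at these levels.

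Knl1, the kinetochore gene of the set, had, with Mcph1, the widest difference in TPM among those detected in both libraries. KNL1 is the scaffold of the outer kinetochore, to which the checkpoint proteins BUB1 and BUB3 bind. The gene (chr2:119047119-119105501, plus strand) stood at 7.22 TPM in replicate 1 and 58.49 in replicate 2, a ratio of 8.10. The counts were 1244 and 4497, a ratio of 3.54 after depth scaling. The larger ratio in TPM came with a shorter effective length in replicate 2, 3466.55 against 7701 bases. In replicate 1 all counts of Knl1 were on the 7800-base transcript with the longest coding sequence, at 7.22 TPM. In replicate 2 that transcript was at 13.16 TPM on 2248.20 counts. A 1573-base transcript was then given 36.58 TPM, 62.54% of the gene's TPM, on 1195.92 counts, and a 5527-base one 8.75 TPM on 1052.88 counts. The 1573-base transcript has no base that is not also in another listed transcript. By the 7800-base transcript alone, replicate 2 was still higher. The 3 protein-coding genes nearest to Knl1 in level, by Euclidean distance of log2(TPM + 1) over the 2 libraries, were Cdk8 at 7.24 and 60.42 TPM (distance 0.0462), Ints13 at 7.31 and 54.25 (0.108) and Ttc9b at 7.40 and 64.06 (0.133). Likeness over 2 libraries is a description of level alone.

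Mcph1 had the opposite lean. Its protein, microcephalin, holds condensin II back until mitosis and acts in the DNA damage response. The gene (chr8:18595131-18803189, plus strand) stood at 36.06 TPM in replicate 1 and 4.21 in replicate 2, a ratio of 0.117, on 1039 and 232 counts, a ratio of 0.219 after depth scaling. In replicate 1 a 768-base coding fragment was given 26.01 TPM on 389.38 counts, and in replicate 2 it was at 0. A 3878-base transcript of the nonsense-mediated decay class held 431.63 and 100.65 counts, and a 2067-base coding transcript 218 and 131.35. The 4662-base transcript with the longest coding sequence, 2466 bases, was given 0 counts in both libraries, although 2055 of its bases lie in no other listed transcript. In both libraries the gene's counts were thus assigned to transcripts other than the full-length one. Angpt2, a vascular ligand gene on the opposite strand inside Mcph1 with no shared exonic base, had 390 counts in replicate 1 and 0 in replicate 2.

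The 768-base fragment of Mcph1 differs from the other listed transcripts by 78 bases (chr8:18627241-18627318, plus strand), which extend an exon into what is intron elsewhere. These are shown, in capitals with 30 exonic bases on each side, because the largest share of the gene's TPM in replicate 1 was given to the transcript that holds them. The second line is the junction of the 2067-base transcript, with the downstream exon in capitals.
Mcph1 extended: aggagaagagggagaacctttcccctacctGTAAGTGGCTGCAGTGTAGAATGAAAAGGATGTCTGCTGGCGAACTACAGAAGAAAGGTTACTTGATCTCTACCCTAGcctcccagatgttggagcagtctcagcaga
Mcph1 spliced: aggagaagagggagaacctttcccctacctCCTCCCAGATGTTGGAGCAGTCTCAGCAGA

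The transcripts assigned reads differed between the libraries for several of the genes. The tables list 37 transcripts for the 10 genes, 1 each for Aspm, Cenpj, Cep152 and Sass6 and several for the other 6. Those with 1 listed transcript included Cenpj, Sass6 and Cep152, whose levels differed widely all the same. Of the 4 genes with several transcripts and 5 TPM or more in each library, 1 kept the same leading transcript, Stil, while Wdr62, Cdk5rap2 and Knl1 did not. Over all genes of that kind 65.6% kept theirs. The transcript with the longest coding sequence reached a TPM of 1 in both libraries for 3 of 5 genes whose mean TPM was 10 or more (Knl1, Stil and Cdk5rap2), beside 56.8% of all such genes. Over the 9 genes for which such a transcript could be named, Aspm was the one further case. Numbers as small as 1 of 4 and 3 of 5 do not set the genes apart from these backgrounds. On the TPM of that transcript, Stil ranked 1 of 9 in replicate 1 and 2 in replicate 2, after Knl1. Mcph1, which ranked 1 by gene TPM in replicate 1, was at 0 on this measure.

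**Figure D2:**
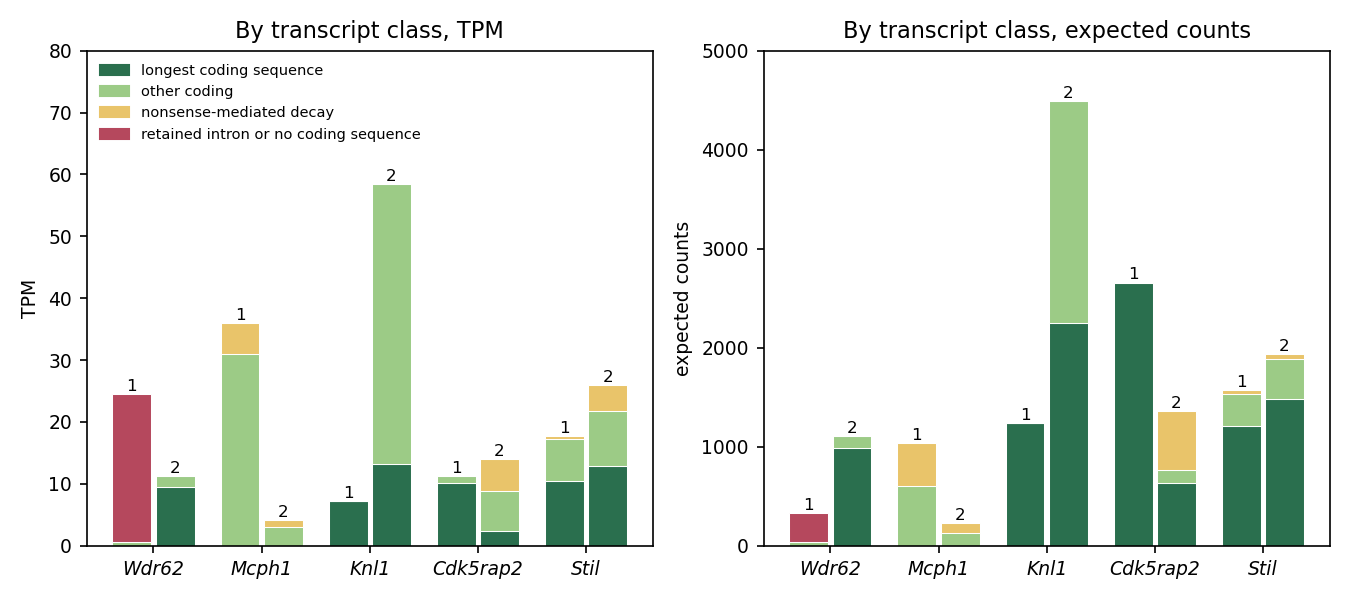
TPM (left) and expected counts (right) of the 5 genes that have several transcripts and whose mean TPM was 10 or more, stacked by transcript class, for replicate 1 (bar marked 1) and replicate 2 (bar marked 2). For Wdr62 the replicate 1 bar is the taller in TPM, at 24.49 against 11.26, and the shorter in counts, at 335 against 1103. The 2 bars of Stil have nearly the same make-up in counts. In TPM, a 622-base transcript of the nonsense-mediated decay class took 0.13% of Stil in replicate 1 and 16.05% in replicate 2.

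Differences between the libraries were read against all genes of like level. A 2-fold difference is an absolute value of at least 1 on the log2(TPM + 1) scale, where the added 1 shrinks differences at low levels. Of the 6 genes whose mean TPM was 10 or more, 4 differed 2-fold, beside 51.3% of all genes at that level. Since these 6 all lay between 10 and 50 TPM, the closer background is the 65% of genes in that range that differed 2-fold, and 4 of 6 is near it. Knl1 at 2.86 and Sass6 at 1.79 were higher in replicate 2, and 34.5% of genes in the range were 2-fold higher there. On this scale Mcph1 at -2.83 and Wdr62 at -1.06 were higher in replicate 1, while the counts of Wdr62 were higher in replicate 2. Stil and Cdk5rap2 differed by less. Over the 9 genes whose mean TPM was 1 or more the median difference was 0.29, beside 0.12 for all 11107 genes at that level. In TPM 6 of the 10 were higher in replicate 2 and 4 in replicate 1. Counts gave the same split, with Wdr62 and Cdk5rap2 changing sides.

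The deposited tables also give an interval for each TPM, which describes the estimate within its library. For all 9 genes with a mean TPM between 1 and 50 the intervals of the libraries did not overlap, beside 88.2% of all genes in that range, so this was the common case. For Stil they ran from 16.7 to 20.5 TPM in replicate 1 and from 22.3 to 28.4 in replicate 2. For Aspm they ran from 4.69 to 5.27 and from 3.13 to 3.61.

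**Figure D3:**
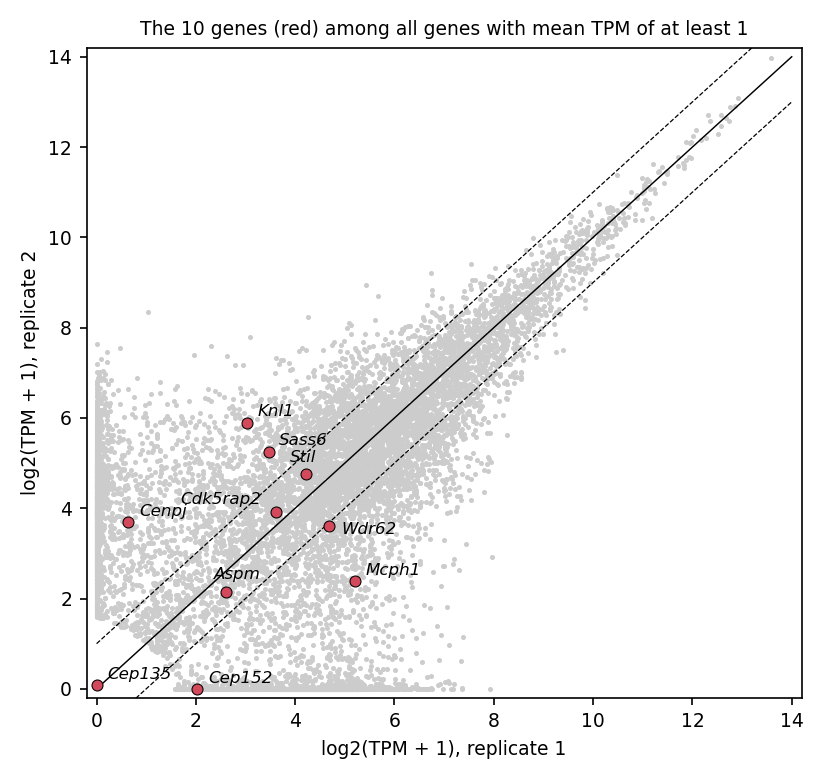
Level of each gene whose mean TPM was 1 or more (grey) in replicate 1 and replicate 2, as log2(TPM + 1), with the 10 genes in red, Cep135 shown though its mean is lower. The solid line marks equal levels and the dashed lines a difference of 1. Stil, Cdk5rap2 and Aspm lie between the dashed lines, Wdr62 at -1.06 lies just past the lower one, and Knl1, Sass6, Cenpj, Mcph1 and Cep152 lie outside.

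A gene's TPM and its counts differed in opposite directions for 2 of the 6 genes whose mean TPM was 10 or more, Wdr62 and Cdk5rap2, beside 6.45% of all genes at that level. The share is the higher one, over 6 genes only. The background also holds genes of higher level and was not limited to genes with several transcripts, so it is not matched to the 6. On log2(CPM + 1), where CPM is counts scaled to a fixed total of gene counts, Wdr62 differed by 1.61 and Cdk5rap2 by -0.99, against -1.06 and 0.29 in TPM. The direction is the same on both scales for the other 8 genes. Counts per kilobase of the longest coding transcript, a measure that does not move with the assignment, gave 1.38 for Wdr62 and -0.86 for Cdk5rap2. This measure divides the same counts by 1 fixed length in both libraries. Its direction is therefore that of the counts by construction and adds no separate support. For these genes, which library was higher depends on the scale, so any direction given for them holds for the named scale only.

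**Figure D4:**
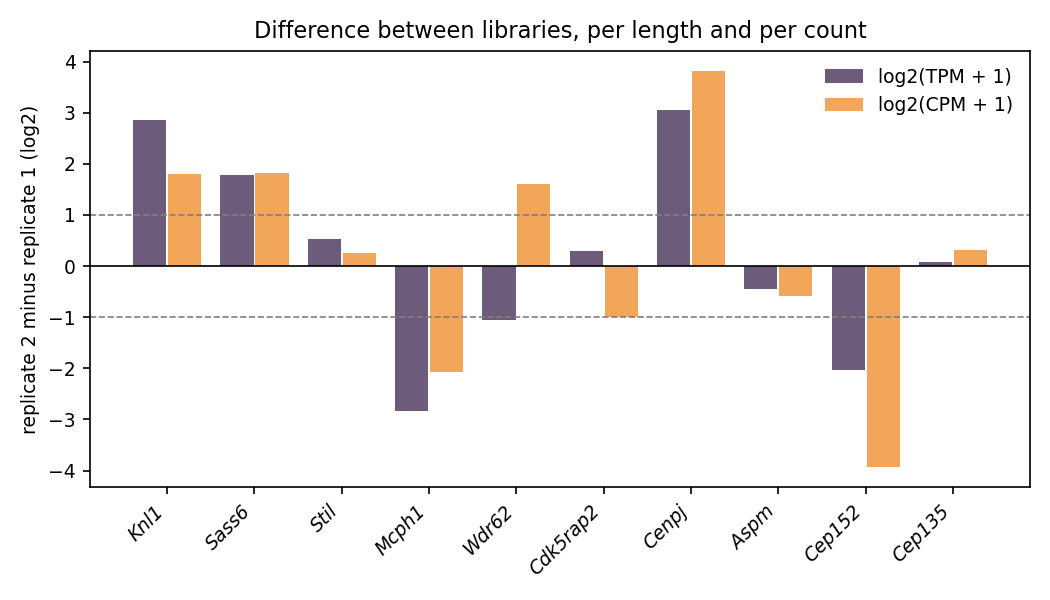
Difference of each of the 10 genes, as replicate 2 less replicate 1, in log2(TPM + 1) (purple) and in log2(CPM + 1) (orange). Dashed lines mark a difference of 1 in each direction. The 2 bars point in opposite directions for Wdr62 (-1.06 and 1.61) and Cdk5rap2 (0.29 and -0.99) and in the same direction for the other 8.

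Upstream sequence was examined for letters that the genes share apart from their levels. RefSeq (GRCm38.p6) gave a promoter for 9 of the 10 genes, and the 250 bases before each start were searched on both strands, with the share over 32851 promoters as background. CCAAT, the box bound by NF-Y in many cell cycle promoters, was present in 5 of 9 (Aspm, Wdr62, Stil, Cep152 and Cep135) against 33.8% of all promoters. GGGCGG, the Sp1 box, was present in 7 of 9 against 32.7%. TTTAAA, a variant of the cell cycle homology region, was in 2 (Aspm and Stil) against 12.1%, and the usual form TTTGAA was in 1 (Sass6) against 15.99%. The E2F motif TTCCCGC was in 1 (Cep152) against 3.82%. GC content over these bases ran from 52% to 63.6%, beside a median of 52.4% over all promoters. The genes with CCAAT included Stil and Aspm, detected in both libraries, as well as Cep152 and Cep135, which were at or near 0 in a library. A match of letters is not a bound site, and nothing is read from it about a factor.

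The 130 bases before the start of Aspm (chr1:139454643-139454772, plus strand), Wdr62 (chr7:30280422-30280551, minus strand) and Stil (chr4:114999988-115000117, plus strand) are shown because they hold more than 1 CCAAT each. Capitals mark CCAAT, or ATTGG where it is on the other strand. In Wdr62 the box nearest the start is followed directly by a GGGCGG.
Aspm: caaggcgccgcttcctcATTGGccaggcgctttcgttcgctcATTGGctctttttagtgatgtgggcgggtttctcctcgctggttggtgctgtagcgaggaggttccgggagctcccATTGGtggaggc
Wdr62: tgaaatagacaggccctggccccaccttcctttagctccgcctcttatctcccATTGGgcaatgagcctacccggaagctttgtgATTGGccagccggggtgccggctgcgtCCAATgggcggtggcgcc
Stil: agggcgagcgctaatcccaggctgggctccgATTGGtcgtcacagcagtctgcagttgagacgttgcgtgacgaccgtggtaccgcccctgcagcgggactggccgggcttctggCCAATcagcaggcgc

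Other genes of these structures, and of other forms of microcephaly, were taken from 6 lists. Of their 99 genes, 89 were detected in both libraries, where 30.4% of all protein-coding genes were. The median of their mean TPM was 51.4. At 10 TPM or more on average there were 87, and 32 of these differed 2-fold, with 20 higher in replicate 2 and 12 in replicate 1. Of all genes at that level 51.3% differed 2-fold, and of those from 10 to 50 TPM 65%. The median of the partner genes lies above that range, so neither share is matched to their level. TPM and counts went in opposite directions for 6, beside 6.45%. The lists were chosen with results of these data known, and their counts are descriptions.

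For the centriole genes, the partners in centriole duplication were detected in both libraries in 14 of 16 cases. The centrins Cetn3 (250.82 and 233.79 TPM) and Cetn2 (70.49 and 123.40) and the centriole protein gene Cep44 (60.98 and 48.08) were the highest. Cntrob, for a protein of daughter centrioles, was at 0 and 20.89 TPM, on 0 and 1007 counts. Plk4, for the kinase that STIL and CEP152 bind, stood at 42.55 and 28.21 TPM, above both Cep152 and Cenpj in each library. For Cdk5rap2, the pericentriolar list was detected in 16 of 18 cases, led by the scaffold gene Akap9 (143.81 and 170.52), the γ-tubulin complex gene Mzt1 (128.08 and 93.98) and γ-tubulin itself, Tubg1 (90.70 and 69.97). Mzt2, at 96.95 and 10.74 TPM, differed most there among genes whose mean TPM was 10 or more. Pcnt, for the pericentrin that holds CDK5RAP2 at the centrosome, was at 0 and 7.38 TPM, on 0 and 1544 counts. Plk4 and Pcnt were named after their values were seen, as were Ndc80 and Bub1 in what follows.

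For Aspm and Wdr62, 22 of 23 spindle pole genes were detected in both libraries. Among the highest was Tacc3, for a spindle microtubule protein, at 291.42 and 172.54 TPM. Kifc1, a minus-end kinesin gene, had 1 and 2345.02 counts. For Knl1, 17 of 18 genes of the outer kinetochore, its checkpoint and centromere were detected in both. Zwint, whose protein binds KNL1, was the highest at 531.03 and 272.80 TPM, with Spc25 (385.12 and 266.83) and Cenpa (305.10 and 240.54) next. Zwint and Knl1 differed in opposite directions. Ndc80, a partner complex gene, stood at 6.44 and 62.98 TPM, near the values of Knl1, while Bub1 went the other way at 32.77 and 2.00. Ttk, the checkpoint kinase gene, was at 0.05 and 129.25 TPM, on 3 and 7691 counts.

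For Mcph1, 8 of 9 genes of the condensins with Set were detected in both libraries. Of the 8 whose mean TPM was 10 or more 1 differed 2-fold, Ncapg at 33.66 and 91.69 TPM. Among all genes whose mean TPM was 10 or more the share was 51.3%. The median of the mean TPM in this list was 112, so that share is not matched to its level. Set, whose protein binds microcephalin, stood at 460.89 and 540.86 TPM, Smc2 at 412.39 and 336.30 and Smc4 at 236.33 and 205.02. Of 26 other genes of primary microcephaly or related small-brain disorders, 22 were detected in both libraries and the other 4 in replicate 2 alone. Of the 20 whose mean TPM was 10 or more 4 differed 2-fold, beside the same 51.3%, and 65% of all genes from 10 to 50 TPM. These genes lie both within and above that range, so neither share is matched to their level. Copb2 (136.08 and 219.52), Nup37 (198.58 and 112.09) and the condensin gene Ncapd2 (156.80 and 122.52) were the highest. Mfsd2a, the lipid transporter of the brain's vessels, had 0 and 2088 counts. The median difference over the lists ran from -0.13 for the other microcephaly genes to 0.50 for the pericentriolar ones, and that of the 10, 0.29, lay within this span.

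**Figure D5:**
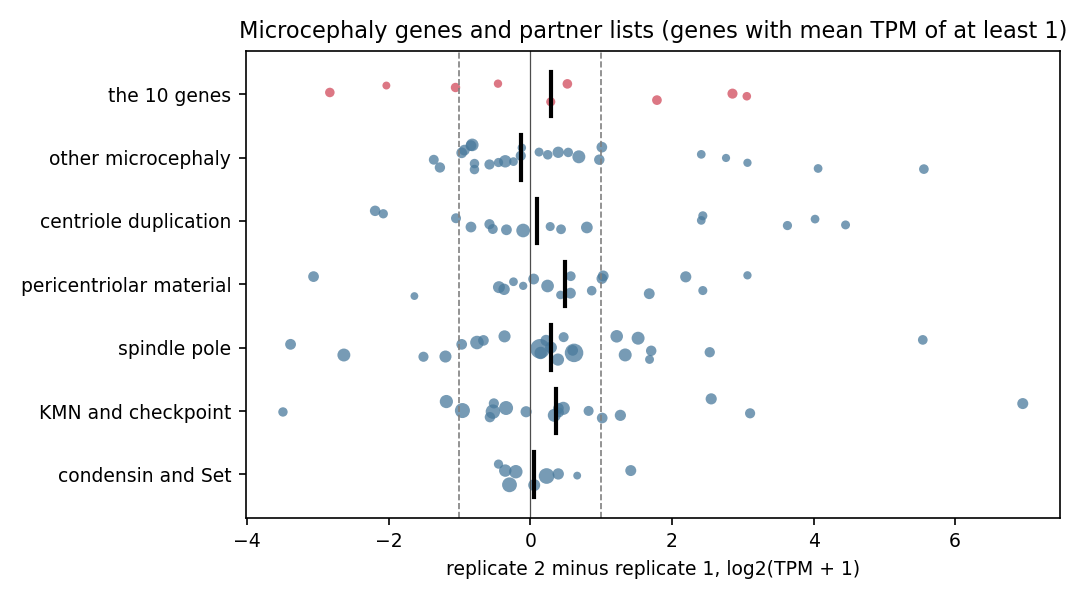
Difference between the libraries, as log2(TPM + 1) in replicate 2 less that in replicate 1, for each gene whose mean TPM was 1 or more among the 10 genes (red) and the 6 partner lists (blue). Point size grows with mean TPM, vertical position within a row is arbitrary, and black bars are medians, from -0.13 for the other microcephaly genes to 0.50 for the pericentriolar list.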

How the data were processed

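RNA of 2 pools of embryonic forebrain was sequenced, with 1 library each. Per the file headers, the deposited gene and transcript tables give the authors' expected counts, TPM, and the percent of a gene's TPM on each transcript. The limits of the deposited TPM intervals were read as a score. The labels name the assembly mm10, and the aligner, the quantifier and any use of strand are, in the sources used here, not given. TPM as deposited covers the spike-ins, which took 8.44% and 6.56% of it.

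Symbols, classes and coordinates (1-based) came from GENCODE M21, on the same assembly, by gene and transcript ID. A transcript's class was carried over for 36 of 37, where lengths agreed within 5 bases, and not for that of Sass6. Spike-in rows and rows without a gene ID were left out of CPM. Protein sequences were not used here.

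Differences are on log2(value + 1). Genes were named by a rule: all 10, from each list the 3 highest detected in both libraries and the 1 that differed most, the 3 nearest to Knl1, and overlapping genes. Some genes that the rule takes are left out here. The 10 genes and the lists were chosen with earlier results of these data known. A count of 0 was given a floor of 3 counts, or 0.110 and 0.107 CPM. Intervals cover counting error only, since no molecular identifiers separate molecules from copies. Alternatives used TMM (edgeR 4.0.16) and DESeq2 1.42.0 size factors as scaling alone, on expected counts, other pseudocounts and thresholds, and posterior mean TPM. Python 3.11.15 and R 4.3.3 were used.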

Additional observations from a re-analysis of the deposited data

How the results depend on the processing

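The number of the 10 genes detected in both libraries was 7 at a TPM of 1 and 4 at a TPM of 10. On the transcripts with the longest coding sequence alone it was 4 of 9, a measure chosen after seeing the data. Sass6 was left out of that count because no such transcript could be named for it. Its 1 listed transcript stood at 10.03 and 37.11 TPM. Each library alone detected 8. The median difference, 0.29, was -0.11 on counts per kilobase of the longest coding transcript, also added after seeing the data and without Sass6. Leaving out Sass6, at 1.79 in TPM, itself lowers the median, so -0.11 does not show an effect of the scale alone. With Sass6 kept, the median was 0.25 on counts with TMM scaling and 0.26 with DESeq2 size factors. The difference of Wdr62, -1.06 in TPM, turned to 1.60 with TMM scaling, 1.61 with DESeq2 size factors and 1.38 per kilobase of the longest coding transcript. Its effective length changed between the libraries, and counts do not use it. The summed TPM was 115.54 and 166.48 in the libraries taken singly. The other alternatives for the counts and sums over the 10 genes and the partner lists moved them by at most 1.5 times or 1 SD. Over single genes, 10 alternatives moved a value beyond that, for Cdk5rap2, Cep152 and Cep135, and 3 turned a called direction, those of Wdr62. Cdk5rap2, not called at 0.29, changed sign to between -1.01 and -0.86 under the same 3. All 3 scale the same gene counts, so they are not separate lines of support. The scalings moved the all-gene median (mean TPM of 10 or more) by 0.05 at most (log2). Differences could not be recomputed without a replicate, since 1 library would remain. No paired analysis was possible because there is one group. Few counts limit what can be said of Cep135, read in 7 at most, and why it was so low was not tested. Every mean is limited by 2 libraries.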
